A study of Mus musculus with 45 samples.

Results

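The 10 genes described here encode cystatins and cathepsins, that is, inhibitors and enzymes of lysosomal protein breakdown. They were chosen by name (Cst7, Cst3, Ctsa, Ctsb, Ctsd, Ctsh, Ctsl, Ctss, Ctsz and Lgmn) out of the 15897 genes for which hippocampal RNA values were deposited, and all 10 were present. The values are variance-stabilised expression values on a log2-like scale, so that a difference of 1 is close to a doubling for well expressed genes. They are not scaled by transcript length, and levels were therefore compared between mice for a given gene and not between genes.

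The values came from the hippocampi of 45 female C57Bl/6J mice, 1 poly(A) RNA library per mouse, and every mouse was sacrificed at 13 months of age. The mice were wild type littermates (AwTw), tau P301L transgenic mice (AwT+), APP/PS1 transgenic mice (A+Tw) or mice carrying both transgenes (A+T+). Within each genotype the mice stayed on standard chow (STD) or received a typical western diet (TWD), rich in fat, cholesterol and sucrose, from 7 months of age. There were 6 mice in each group except A+Tw/STD with 5 and A+T+/STD with 4, and 20 mice belonged to batch 0 and 25 to batch 1, with 1 of the 5 A+Tw/STD mice in batch 0. The tau transgene is driven by the CaMKII promoter, which is active in forebrain neurons, and the APPswe/PS1dE9 transgene by the mouse prion protein promoter. A+ mice accumulate β-amyloid plaques, and all 21 A+ mice (9 on STD, 12 on TWD) carry mutant APP and mutant presenilin together, so that the part of each cannot be told apart.

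Lysosomes break down what a cell takes up by endocytosis or phagocytosis and what it delivers by autophagy. Cathepsins are the proteases of this compartment: most are papain-like cysteine proteases, some are aspartic or serine proteases, and all are made as inactive precursors that mature in the acidic lumen. Cystatins bind the active site of cysteine cathepsins and keep them in check, either inside the endolysosomal system or after secretion. In the brain, microglia, the resident macrophages, hold much of the cathepsin RNA, and microglia that gather at β-amyloid plaques are known for high levels of several of these genes.

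Both inhibitors lie on mouse chromosome 2. Cst7 (ENSMUSG00000068129, chr2:150570415-150578944, plus strand; GRCm38) encodes cystatin F, an inhibitor made by immune cells and targeted to the endolysosomal compartment, where it acts on cathepsins that activate other proteases. Cst3 (ENSMUSG00000027447, chr2:148871722-148875692, minus strand) encodes cystatin C, a secreted inhibitor that many brain cells make. Ctsd (ENSMUSG00000007891, chr7:142375911-142388038, minus strand) encodes cathepsin D, the main lysosomal aspartic protease. Ctsa (ENSMUSG00000017760, chr2:164832873-164841032, plus strand) encodes cathepsin A, a serine carboxypeptidase that also shields β-galactosidase and neuraminidase 1 in a complex. Among the cysteine cathepsins, Ctsb (ENSMUSG00000021939, chr14:63122462-63145923, plus strand) and Ctsl (ENSMUSG00000021477, chr13:64359337-64370890, minus strand) are widely expressed endopeptidases, and Ctsb also trims dipeptides from the carboxyl end of its substrates. Ctsh (ENSMUSG00000032359, chr9:90054152-90076089, plus strand) is mainly an aminopeptidase. Ctss (ENSMUSG00000038642, chr3:95526786-95556403, plus strand) is the cathepsin of antigen-presenting cells that degrades the invariant chain and keeps its activity at neutral pH. Ctsz (ENSMUSG00000016256, chr2:174427493-174439039, minus strand) is a carboxypeptidase. Lgmn (ENSMUSG00000021190, chr12:102394084-102439813, minus strand) encodes legumain, an asparaginyl endopeptidase that processes other cathepsins.

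The upstream sequences of the genes are given because the genes moved together. RefSeq (GRCm38.p6) promoter windows were found for 8 of the 10 genes, Ctsb and Ctsh being the exceptions, and the 250 bases before each RefSeq start were searched on both strands. Those of Cst7, Ctss and Ctsz, 3 of the 4 genes with the largest differences in A+ mice, overlapped no annotated exon and had a RefSeq start equal to the GENCODE start. They are printed in the direction of transcription, ending at the base before the start. A window of Lgmn also overlapped no exon but is not printed, because its start differs from that of GENCODE. Capitals mark matches to GGAAGT, the core of ETS sites of the PU.1 type, in Cst7, and to GGGCGG, the GC box of Sp1, in Ctss and Ctsz.
Cst7, chr2:150570165-150570414, plus strand: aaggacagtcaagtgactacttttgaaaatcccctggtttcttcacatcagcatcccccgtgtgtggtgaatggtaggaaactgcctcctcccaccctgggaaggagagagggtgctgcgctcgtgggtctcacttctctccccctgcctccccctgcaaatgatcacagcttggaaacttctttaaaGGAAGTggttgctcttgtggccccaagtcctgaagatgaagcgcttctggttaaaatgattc
Ctss, chr3:95526536-95526785, plus strand: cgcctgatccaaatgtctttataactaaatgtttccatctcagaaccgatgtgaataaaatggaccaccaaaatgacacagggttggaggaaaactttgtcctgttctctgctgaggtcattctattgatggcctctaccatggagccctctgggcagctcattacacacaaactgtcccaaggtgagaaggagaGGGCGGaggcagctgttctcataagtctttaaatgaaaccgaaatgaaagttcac
Ctsz, chr2:174439040-174439289, minus strand: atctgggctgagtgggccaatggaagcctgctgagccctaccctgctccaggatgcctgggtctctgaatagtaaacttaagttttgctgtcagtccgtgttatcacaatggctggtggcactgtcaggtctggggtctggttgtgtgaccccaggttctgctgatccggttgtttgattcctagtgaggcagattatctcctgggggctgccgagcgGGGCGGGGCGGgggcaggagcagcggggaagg

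Matches to the motifs were few and differed between the genes. The palindrome TCACGTGA, the centre of the CLEAR element that the lysosomal regulator TFEB recognises, was found upstream of Ctsa and Ctsd, and upstream of 0.803% of the 27025 genes with a window. Its inner E-box CACGTG was found upstream of Ctsa, Ctsd, Ctsl and Lgmn, and of 6.05% of all genes. Because Ctsa and Lgmn have 2 windows each and the share of all genes was taken from 1 window per gene, these counts are not on an equal footing. Both palindromes lie in exons of other annotated transcripts of the same gene, and 28 bases around each are printed with the palindrome in capitals.
Ctsa, chr2:164833750-164833777, plus strand: gagcaaactgTCACGTGAtgcagatgct
Ctsd, chr7:142387909-142387936, minus strand: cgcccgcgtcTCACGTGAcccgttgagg

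GGAAGT was found upstream of Cst7 and Ctsa, against 19.99% of all genes, and GGGCGG upstream of Cst3, Ctsd, Ctss, Ctsz and Lgmn, against 32.9%. No window of these genes held TGACTCA, the AP-1 site, found in 4.43% of all genes, or the ETS and IRF composite element, found in 2.38%. The match in Ctsz is a pair of GC boxes that share 1 base.

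The libraries carried the markers of their tissue, and 1 tissue component varied widely between them. All 10 hippocampal markers listed were present, with a mean of 9.66 to 10.13 per mouse. The mean of 12 choroid plexus markers ran from 6.19 to 10.59 and was 8.97 ± 1.21 (SD, n = 21) in A+ and 8.12 ± 1.64 (SD, n = 24) in Aw mice. None of the 8 neutrophil and monocyte markers listed was in the table. A first principal component of the variation left after group and batch held 41.3% of that variation. Because the tissue is a mixture, fewer cells of a type and less RNA per cell cannot be told apart in any comparison below.

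All 10 genes were higher in the 21 mice with the APP/PS1 transgene than in the 24 mice without it. Read as log2, the differences ranged from 1.24-fold for Ctsb to 17.6-fold for Cst7. Differences of low values are understated on this scale, and Cst7 was low in Aw mice (5.20 ± 0.37, SD), so its fold may be too small. Averaged over tau genotype and diet, all 10 passed an adjusted p of 0.05 (limma, Benjamini-Hochberg over all genes), against 3.77% of all genes and 3.11% called higher. The median difference was 0.62 for the 10 genes and -0.02 for all genes. Cst3 was at the edge of the threshold with an adjusted p of 0.0463, and in 31 of the 45 fits that left out 1 mouse its adjusted p was above 0.05, with a highest value of 0.0985. The plot of values by mouse shows the 8 groups for each gene.

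**Figure D1:**
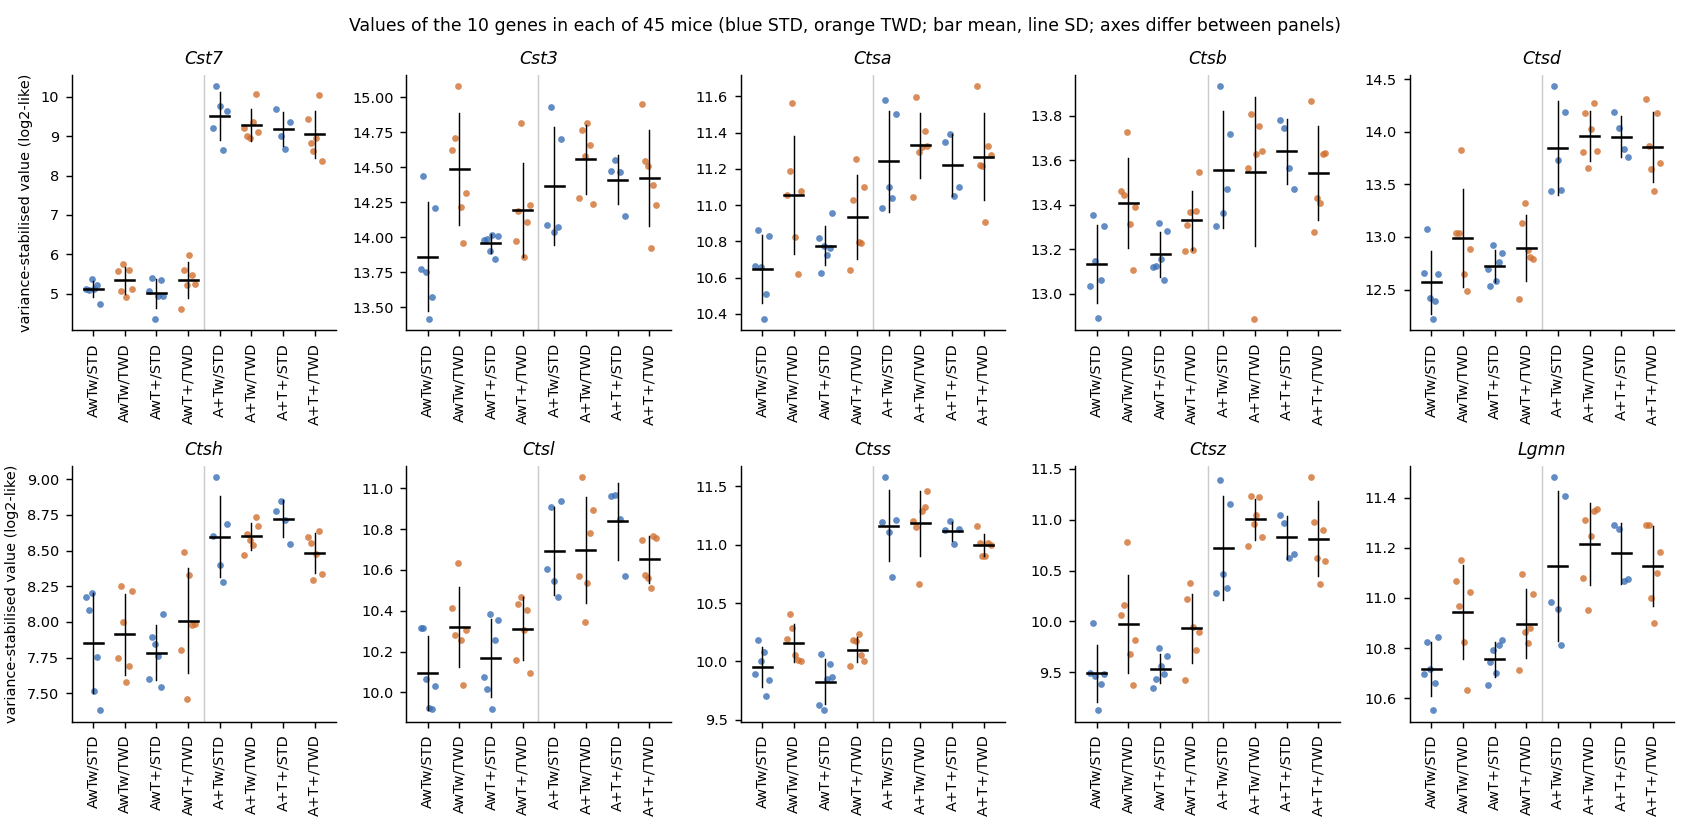
Variance-stabilised value (vertical axis, log2-like units, a different range in each panel) of each of the 10 genes in each of 45 mice, by genotype and diet (horizontal axis). Points are mice (blue STD, orange TWD), bars group means and lines 1 SD; the A+ groups lie right of the grey line, and Cst7 and Ctss are the panels in which no A+ mouse reaches down to any Aw mouse.

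Cst7 showed the largest difference of the 10 genes. The AwTw/STD mice had a lowest, median and highest value of 4.75, 5.13 and 5.37, the AwTw/TWD mice 4.90, 5.34 and 5.76. In AwT+ mice the values were 4.36, 5.00 and 5.41 on STD and 4.60, 5.35 and 5.98 on TWD. Both tau genotypes without APP/PS1 thus covered much the same range. The 5 A+Tw/STD mice had 8.66, 9.21, 9.63, 9.77 and 10.27, and the A+Tw/TWD mice 8.96, 9.16 and 10.07. The 4 A+T+/STD mice had 8.68, 9.01, 9.36 and 9.70, and the A+T+/TWD mice 8.37, 8.89 and 10.05. Every A+ mouse lay above every Aw mouse, with 2.39 between the lowest A+ and the highest Aw mouse. The difference was 4.13 ± 0.10 (log2 ± SE, adjusted p = 6.35e-31 by limma), and against AwTw on STD it was 4.17 ± 0.20 for A+T+ and 4.31 ± 0.19 for A+Tw mice, and against AwTw on TWD 3.91 ± 0.19 and 4.15 ± 0.19. Ordered by mean, the 4 Aw groups ran from AwT+/STD (5.01 ± 0.37, SD) to AwT+/TWD (5.35 ± 0.46) and the 4 A+ groups from A+T+/TWD (9.04 ± 0.61) to A+Tw/STD (9.51 ± 0.61). The deposited values had batch removed so that both batches have the same mean in each gene, whatever groups they hold. The group means above carry no further batch term, and the order within the A+ groups depends on it. With batch in the fit, A+Tw/TWD mice were 0.06 ± 0.20 above A+Tw/STD mice (adjusted p = 0.917, limma). Neighbours within each of these 2 sets of groups overlapped, and the single step between the sets was the only one without overlap.

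Ctss, the cathepsin of antigen-presenting cells, was the other gene that separated all A+ from all Aw mice. Its lowest, median and highest values were 9.71, 9.95 and 10.18 in AwTw/STD and 10.01, 10.12 and 10.41 in AwTw/TWD mice. They were 9.58, 9.86 and 10.07 in AwT+/STD and 9.96, 10.12 and 10.23 in AwT+/TWD mice. No Aw group stood apart from the others. The 5 A+Tw/STD mice had 10.72, 11.11, 11.19, 11.21 and 11.58, the 4 A+T+/STD mice 11.01, 11.12, 11.13 and 11.20. On TWD the A+Tw mice had 10.66, 11.25 and 11.46 and the A+T+ mice 10.90, 11.00 and 11.16. The lowest A+ mouse, of the A+Tw/TWD group, lay 0.26 above the highest Aw mouse, of the AwTw/TWD group. The difference between A+ and Aw mice was 1.13 ± 0.05 (adjusted p = 1.21e-19, limma). Of all genes, 27 or 0.17% had every A+ mouse above every Aw mouse, Cst7 and Ctss among them.

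Ctsd, the aspartic protease, and Ctsz, the carboxypeptidase, rose by about as much as Ctss but with more spread between mice. Ctsd was 12.22, 12.54 and 13.07 in AwTw/STD (lowest, median, highest), 12.49, 12.96 and 13.83 in AwTw/TWD, 12.53, 12.73 and 12.93 in AwT+/STD and 12.41, 12.84 and 13.32 in AwT+/TWD mice. It was 13.44, 13.44, 13.73, 14.19 and 14.44 in the 5 A+Tw/STD mice and 13.76, 13.84, 14.03 and 14.19 in the 4 A+T+/STD mice, and on TWD A+Tw mice had 13.66, 13.93 and 14.28 and A+T+ mice 13.44, 13.79 and 14.31. The A+ and Aw mice overlapped through 1 AwTw/TWD mouse, since 23 of the 24 Aw mice were below the lowest A+ mouse. The difference was 1.14 ± 0.09 (adjusted p = 1.36e-12, limma).

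Ctsz was 9.13, 9.47 and 9.99 in AwTw/STD, 9.38, 9.94 and 10.78 in AwTw/TWD, 9.34, 9.52 and 9.73 in AwT+/STD and 9.42, 9.92 and 10.38 in AwT+/TWD mice. It was 10.28, 10.33, 10.47, 11.15 and 11.39 in the 5 A+Tw/STD and 10.62, 10.66, 10.97 and 11.05 in the 4 A+T+/STD mice, and on TWD A+Tw mice had 10.74, 11.00 and 11.23 and A+T+ mice 10.37, 10.76 and 11.42. The highest AwTw/TWD and the highest AwT+/TWD mouse reached into the A+ range, and 22 of the 24 Aw mice were below the lowest A+ mouse. The difference was 1.13 ± 0.10 (adjusted p = 6.14e-12, limma).

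Ctsh, Ctsl, Ctsa and Lgmn rose by smaller amounts. Ctsh, the aminopeptidase, ranged from 7.38 to 8.49 in Aw and from 8.28 to 9.01 in A+ mice, a difference of 0.72 ± 0.08 (adjusted p = 2.04e-09, limma), and 15 of the 21 A+ mice were above every Aw mouse. Ctsl ranged from 9.92 to 10.64 in Aw and from 10.34 to 11.05 in A+ mice, a difference of 0.51 ± 0.06 (adjusted p = 1.88e-08). For Ctsa the ranges were 10.37 to 11.57 and 10.91 to 11.66, with a difference of 0.42 ± 0.07 (adjusted p = 2.23e-05). All 3 genes overlapped between the sets of mice, with 22, 17 and 16 of the 24 Aw mice below the lowest A+ mouse. Lgmn, which processes other cathepsins, ranged from 10.55 to 11.15 in Aw and from 10.81 to 11.48 in A+ mice, a difference of 0.34 ± 0.05 (adjusted p = 7.11e-06).

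Ctsb and Cst3 changed least. Ctsb ranged from 12.89 to 13.73 in Aw and from 12.89 to 13.93 in A+ mice, and the lowest A+ value, of 1 A+Tw/TWD mouse, was below every Aw value. Its difference was 0.31 ± 0.06 (adjusted p = 0.000947, limma). Cst3, the secreted cystatin C, ranged from 13.42 to 15.08 in Aw and from 13.93 to 14.95 in A+ mice, a difference of 0.32 ± 0.10, and the highest value of all 45 mice came from an AwTw/TWD mouse. The inhibitors were at opposite ends of the 10 genes, cystatin F with the largest and cystatin C among the 2 smallest differences.

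Each batch gave the same direction for all 10 genes. In batch 0 alone the A+ difference was 3.93 for Cst7, 1.06 for Ctss, 0.95 for Ctsd and 0.99 for Ctsz, and in batch 1 alone it was 4.25, 1.12, 1.30 and 1.26 in the same order. For Ctsh, Ctsl, Ctsa, Lgmn, Ctsb and Cst3 it was 0.67, 0.43, 0.29, 0.21, 0.18 and 0.18 in batch 0 and 0.75, 0.58, 0.55, 0.41, 0.46 and 0.43 in batch 1. The last 4 of these did not pass in batch 0, where the A+Tw/STD group is 1 mouse, and Cst3 did not pass in batch 1 either. With the choroid plexus marker mean as a covariate the 4 largest differences were 4.12, 1.14, 1.05 and 1.06, and Cst3 was the gene that no longer passed (adjusted p = 0.157, limma).

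On STD, A+Tw mice had 8 of the 10 genes higher than AwTw mice, all but Cst3 and Ctsb, against 0.925% of all genes called. A+T+/STD mice had 9 higher, all but Cst3, against 1.32% of all genes. The choroid plexus marker mean was 10.01 ± 0.36 (SD, n = 4) in A+T+/STD, 8.59 ± 1.23 (SD, n = 5) in A+Tw/STD and 7.92 ± 1.57 (SD, n = 6) in AwTw/STD mice. With it as a covariate 6 genes passed in A+T+/STD, where Ctsa, Ctsb and Lgmn were lost (adjusted p = 0.208, 0.134 and 0.0858, limma), against 0.761% of all genes. In A+Tw/STD 7 passed and Lgmn was lost (adjusted p = 0.0548, limma), against 0.906%. On TWD, 5 genes were higher in A+Tw mice, against 0.824% of all genes, and 5 in A+T+ mice, against 0.73%, and both times they were Cst7, Ctsd, Ctsh, Ctss and Ctsz. The AwTw mice of each diet serve both genotypes, so the comparisons on a diet share their controls. In A+Tw/STD, Ctsl rose by 0.59 ± 0.12 (adjusted p = 0.00230, limma), Ctsa by 0.58 ± 0.14 (adjusted p = 0.0152) and Lgmn by 0.41 ± 0.10 (adjusted p = 0.0391). In A+Tw/TWD the differences of the same genes were 0.40 ± 0.11, 0.30 ± 0.13 and 0.29 ± 0.10, with adjusted p of 0.113, 0.802 and 0.362. For Cst3 the difference was 0.50 ± 0.19 in A+Tw/STD and 0.09 ± 0.18 in A+Tw/TWD, neither past the threshold (adjusted p = 0.581 and 1), and in batch 0 alone, with 1 A+Tw/STD mouse, the STD value was -0.25.

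The calls close to the threshold rested on single mice. In A+Tw/STD, Lgmn was lost without A+Tw/STD replicate 2 or 5 or AwTw/STD replicate 1, 3, 4 or 5, and Ctsa without A+Tw/STD replicate 2 or 5 or AwTw/STD replicate 4 or 5, the adjusted p rising up to 0.332 and 0.117. In A+T+/STD, Lgmn was lost without A+T+/STD replicate 1 or 2 (adjusted p up to 0.107), Ctsa without these or AwTw/STD replicate 4 or 5 (up to 0.176), and Ctsb in 10 of 45 fits (up to 0.225). In A+T+/TWD, Ctsh was lost without A+T+/TWD replicate 1, 2, 4 or 5 or AwTw/TWD replicate 1, 4 or 5 (up to 0.157). Cst7, Ctss, Ctsd and Ctsz kept their call in every such fit of the 4 comparisons. In a fit of the A+T+/TWD and AwTw/TWD mice alone, Ctsz did not pass (adjusted p = 0.129, limma), while Cst7, Ctss and Ctsd did.

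The ranges of the groups gave a similar picture. Of the 10 genes, 7 had every A+ mouse above every Aw mouse on STD, against 0.686% of all genes, and 2 (Cst7 and Ctss) on TWD, against 0.239%. The 7 were Cst7, Ctsa, Ctsd, Ctsh, Ctsl, Ctss and Ctsz. In the comparison of A+Tw with AwTw mice, 7 genes did not overlap on STD, against 1.14% of all genes, and 3 (Cst7, Ctsh and Ctss) on TWD, against 0.61%. In the comparison of A+T+/STD with AwTw/STD, 9 genes did not overlap, against 2.82% of all genes, and in A+T+/TWD with AwTw/TWD, 3 (Cst7, Ctsh and Ctss) did not, against 0.528%.

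**Figure D2:**
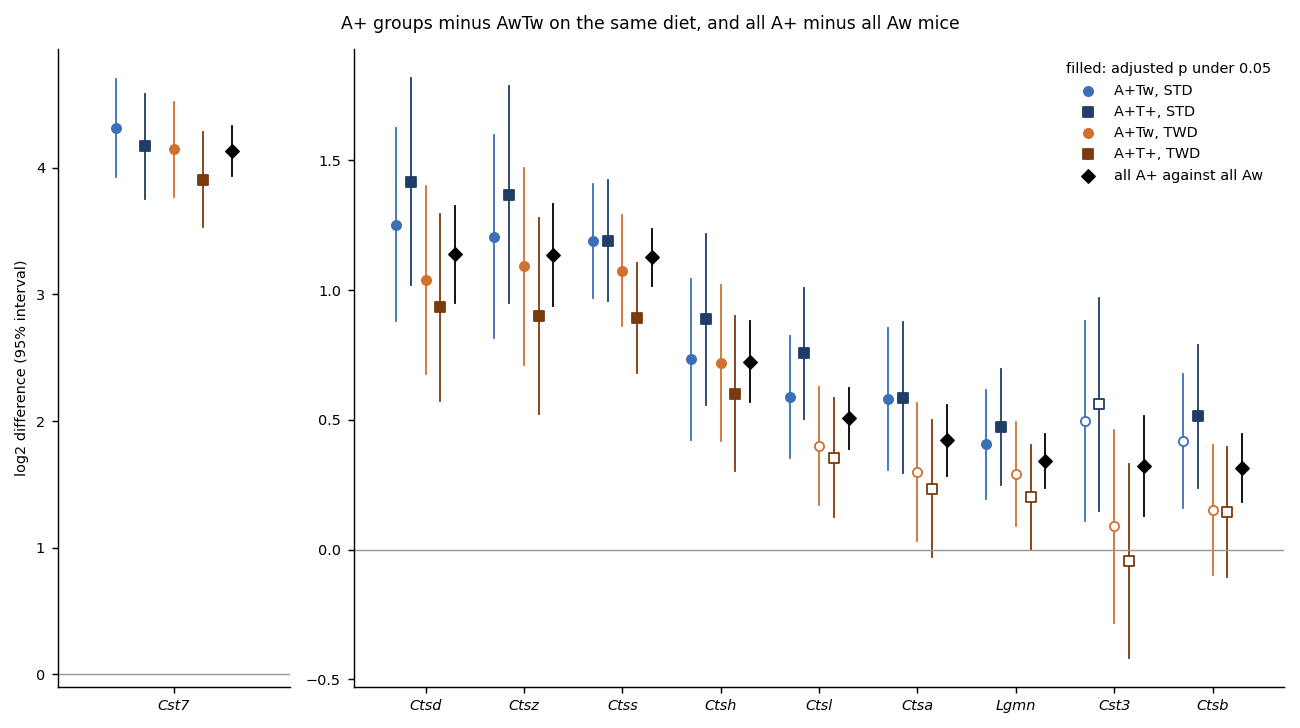
Log2 difference (vertical axis, with 95% interval from limma) of each gene in A+Tw and A+T+ mice against AwTw mice on the same diet, and in all A+ against all Aw mice (black diamonds), Cst7 on an axis of its own. Filled symbols passed an adjusted p of 0.05, and in each of the 10 genes both TWD estimates lie below both STD estimates.

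Whether the A+ difference itself depended on diet was tested as an interaction. All 10 estimates were negative, from -0.31 for Cst3 to -0.14 for Lgmn, meaning a smaller A+ difference on TWD than on STD. The sign did not hold in batch 0 alone, where it was positive for 6 of the 10 genes, from 0.0067 for Ctsa to 0.22 for Ctsd, with 0.07 for Cst7, 0.06 for Cst3, 0.16 for Ctsz and 0.04 for Lgmn. In batch 1 alone all 10 were negative, from -0.32 for Cst3 to -0.14 for Ctsb. None passed the adjusted threshold in limma, where the smallest adjusted p was 0.917, and 0% of all genes passed. Ctsl (-0.25 ± 0.12) and Ctss (-0.23 ± 0.11) were under an unadjusted 0.05, as were 2.59% of all genes. The 95% interval was -0.62 to 0.17 for Cst7, -0.59 to 0.17 for Ctsd and -0.70 to 0.08 for Cst3, which leaves room for no change as well as for a sizeable one.

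The tau transgene was not accompanied by a detectable difference in any of the 10 genes. Against AwTw mice on the same diet, the differences in AwT+ mice ran from -0.10 (Ctss) to 0.19 (Ctsd) on STD and from -0.29 (Cst3) to 0.10 (Ctsh) on TWD. In both comparisons 0 of the 10 genes passed in limma, adjusted or unadjusted, and 0% and 0% of all genes passed, while 2.39% and 3.04% were under an unadjusted 0.05. Averaged over APP/PS1 and diet, T+ mice differed from Tw mice by -0.09 for Cst7 (95% interval -0.29 to 0.10), -0.08 for Ctss (-0.19 to 0.03) and 0.04 for Ctsd (-0.15 to 0.22), with 0 of the 10 passing in limma against 0.0189% of all genes. At an unadjusted 0.05 these were 0 of the 10 and 5.15% of all genes. The A+ difference in T+ mice minus that in Tw mice was -0.20 for Cst7 (95% interval -0.58 to 0.19), and between -0.04 and 0.06 for the other 9 genes. None passed in limma, against 0% of all genes, and under an unadjusted 0.05 were 0 of the 10 and 1.46% of all genes.

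Over all genotypes 3 of the 10 genes were higher and 0 lower on TWD, against 16% of all genes called higher and 29.4% called in either direction. Ctsz rose by 0.33 ± 0.10 (adjusted p = 0.0176, limma), Cst3 by 0.29 ± 0.10 (adjusted p = 0.0270) and Ctsa by 0.19 ± 0.07 (adjusted p = 0.0328). The call of Cst3 was lost without AwT+/TWD replicate 3 or AwTw/TWD replicate 3, with an adjusted p up to 0.0542, and that of Ctsa in 9 of the 45 fits that left out 1 mouse, with an adjusted p up to 0.0650. The values on TWD and STD overlapped for each of the 10 genes over all mice, where 0% of all genes did not overlap. They also overlapped within every genotype, and the share of all genes with every TWD mouse above every STD mouse was 0.22% in A+T+, 0.786% in AwT+, 0.0629% in A+Tw and 0.201% in AwTw mice. The other 7 differences lay between 0.04 (Ctsh) and 0.18 (Ctsd). Within AwTw mice Cst3 rose by 0.62 ± 0.18 and Ctsa by 0.41 ± 0.13, both with an adjusted p of 0.0498 (limma), so 2 of the 10 genes passed against 9.35% of all genes. Both calls were lost in 32 of the 45 fits that left out 1 mouse, with an adjusted p up to 0.183. Cst3 was 13.42, 13.76 and 14.44 in AwTw/STD (lowest, median, highest) and 13.96, 14.47 and 15.08 in AwTw/TWD mice, and Ctsa was 10.37, 10.66 and 10.87 and 10.62, 11.07 and 11.57. Within AwT+, A+Tw and A+T+ mice 0 of the 10 genes passed in limma, and 0%, 0% and 0% of all genes. Under an unadjusted 0.05 was Ctss in AwT+ mice alone (0.25 ± 0.10), against 7.44%, 4.43% and 2.57% of all genes.

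**Figure D3:**
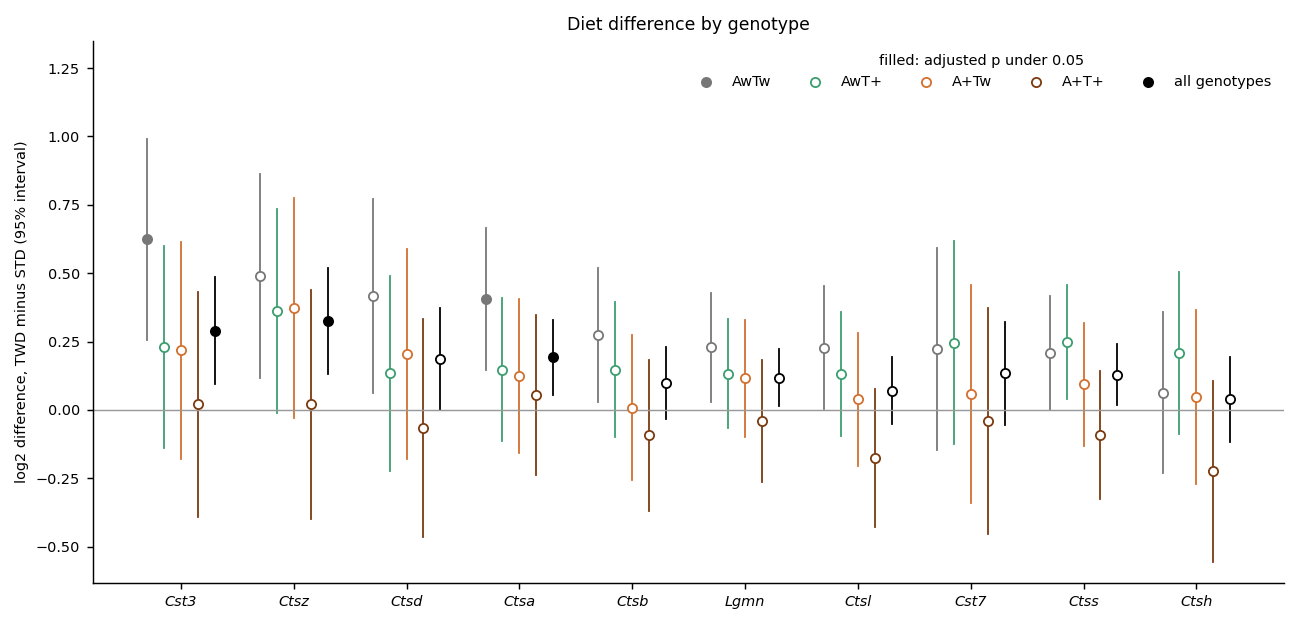
Log2 difference between TWD and STD (vertical axis, with 95% interval from limma) of each gene within each genotype and over all genotypes (black). Filled points passed an adjusted p of 0.05, which in single genotypes happened for Cst3 and Ctsa in AwTw mice alone, and the A+T+ points lie lowest in each of the 10 genes.

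The genes called for diet were among those that followed the first residual component. The score of the first residual component correlated with the residuals of Cst3 at r = 0.921, of Ctsa at 0.913, of Ctsz at 0.861, of Ctsd at 0.797, of Lgmn at 0.703, of Ctsb at 0.666 and of Ctsl at 0.544, while for Ctss, Ctsh and Cst7 r was 0.248, 0.120 and 0.0650 (45 mice, as a description). The mean score was -27.0 in AwTw/STD and 18.7 in AwTw/TWD mice, and in A+Tw mice it was -5.81 on STD and 15.2 on TWD. In AwT+ mice it was -16.5 on STD and 2.94 on TWD, and in A+T+ mice 2.47 and 9.93. The SD within groups ran from 8.64 in AwT+/STD to 36.9 in A+Tw/STD mice. With the score as a covariate, chosen after seeing the data, the diet difference over all genotypes was 0.07 for Ctsz, 0.02 for Cst3 and 0.01 for Ctsa, and 0% of all genes passed. The score was computed from the full values of all genes, so it held the diet difference as well. For genes with a high r to the component, much of a diet difference was thus removed by construction. These values cannot show whether the diet difference is separate from the component. In batch 0 alone 0 of the 10 genes passed and 0% of all genes, and in batch 1 alone 6 of the 10 and 40.9%. The A+ differences under the same covariate were 4.13 for Cst7, 1.11 for Ctss, 1.04 for Ctsd, 1.02 for Ctsz and 0.20 for Cst3, all 10 genes passing, against 6.47% of all genes. On TWD the count of genes higher in A+Tw mice was 8 under this covariate, with Ctsl, Ctsa and Lgmn added. The share of all genes called was 1.28% there, against 0.824% without the covariate. The interaction with diet passed in 0 of the 10 genes and 0% of all genes. What the component stands for was not tested.

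Other genes of the lysosomal system were set beside these 10. Of 8 further cathepsins and lysosomal peptidases listed, 5 were in the table and 1, Ctsc, an activator of granule proteases, was higher in A+ mice (0.47 ± 0.13, adjusted p = 0.0200, limma). The median of the 5 was 0.06. Ctsf, Ctsk, Ctso and Tpp1 differed by 0.02 ± 0.05, 0.06 ± 0.07, 0.05 ± 0.06 and 0.11 ± 0.08, none past the threshold. Of 25 further cystatins and other protease inhibitors, 5 were in the table, and Serpina3n, a secreted serine protease inhibitor of reactive astrocytes, was higher (0.73 ± 0.10, adjusted p = 3.52e-07) while Cstb, Cst6, Serpinb6a and Serpinb9 were at 0.07 ± 0.07, -0.05 ± 0.10, -0.04 ± 0.07 and -0.07 ± 0.10.

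The machinery that delivers and activates lysosomal enzymes moved less. Of its 17 genes, 2 rose in A+ mice, Grn, which encodes progranulin, by 0.68 ± 0.07 (adjusted p = 7.50e-10, limma) and Lamp1, a lysosomal membrane protein, by 0.16 ± 0.04 (adjusted p = 0.0236), and the median was 0.08. The mannose 6-phosphate receptors M6pr and Igf2r, which carry cathepsins to the lysosome, were at 0.03 ± 0.03 and -0.05 ± 0.05, and Tfeb, the regulator of lysosomal genes, at 0.14 ± 0.09, none past the threshold. Among the partners of single cathepsins, Cd74, the invariant chain that Ctss degrades, rose by 1.27 ± 0.25 (adjusted p = 0.000639) and Glb1, the β-galactosidase of the cathepsin A complex, by 0.24 ± 0.06 (adjusted p = 0.00740), and Neu1 was at 0.08 ± 0.07. Under TWD over all genotypes, 2 of the 17 delivery genes were higher and 4 lower. Of all genes, 16% were called higher and 29.4% in either direction. With the first residual component as a covariate, a score that itself holds the diet difference, 0% passed. Among the lower delivery genes were Lamp2 at -0.39 ± 0.13 and Scarb2, the receptor of glucocerebrosidase, at -0.38 ± 0.11.

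**Figure D4:**
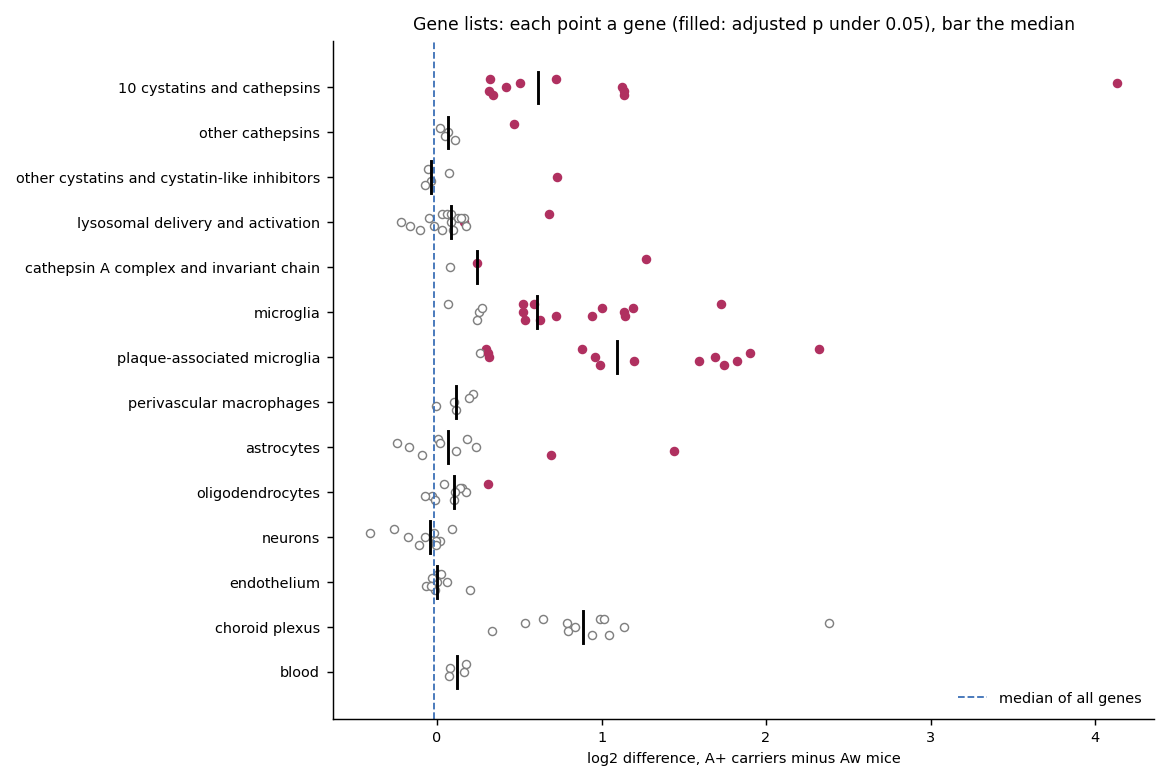
Log2 difference between A+ and Aw mice (horizontal axis) of each gene in 14 lists (rows), each point a gene, filled where the adjusted p was under 0.05, black bars the list medians and the dashed line the median of all genes. The 10 cystatins and cathepsins are all filled, and all but Cst7 lie in the range of the microglial lists. Cst7, at 4.13, lies above both lists. Other cathepsins, other inhibitors and delivery genes centre near 0, and choroid plexus markers lie to the right with no call.

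Markers of microglia rose together with the 10 genes. All 16 microglial markers were higher in A+ mice by estimate and 12 passed, with a median of 0.61 and a range of 0.06 to 1.72, and of 14 genes of plaque-associated microglia 13 passed with a median of 1.09. The microglial marker mean ranged from 8.47 to 9.08 in Aw and from 9.14 to 9.79 in A+ mice. Perivascular macrophage markers had 0 of the 5 in the table called, with a range of the mean of 5.14 to 6.12 in Aw and 5.16 to 6.15 in A+ mice, and 2 of 10 astrocyte markers passed, Gfap by 1.44 ± 0.06 and Vim by 0.69 ± 0.11. The 12 choroid plexus markers had a median of 0.89 with 0 called, and among the markers of neurons, hippocampus, endothelium and blood 0 passed. The part of any of these cells in the differences was not tested.

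Set against the microglial marker mean of the same mouse, which was 0.72 higher in A+ mice, the 10 genes fell into 3 sets. This comparison was added after the data were seen. A gene with no A+ difference would also lie below the marker mean, by 0.72. The share of all genes on either side of it was not taken. The 3 sets therefore describe these 10 genes and are not shown to be particular to them. Cst7 exceeded the marker mean by 3.42 (95% interval 3.25 to 3.59), Ctsd by 0.42 (95% interval 0.26 to 0.58), Ctsz by 0.42 (95% interval 0.24 to 0.59) and Ctss by 0.41 (95% interval 0.33 to 0.49). Ctsh moved with it, at 0.01 (95% interval -0.14 to 0.15). Ctsl was at -0.21 (95% interval -0.33 to -0.09), Ctsa at -0.30 (95% interval -0.42 to -0.17), Lgmn at -0.38 (95% interval -0.46 to -0.29), Cst3 at -0.40 (95% interval -0.56 to -0.23) and Ctsb at -0.40 (95% interval -0.51 to -0.30), so these 5 rose by less than the markers did in this average over tau genotype and diet. Against AwTw on STD, the interval included 0 for Ctsl, Ctsa and Cst3 in both A+ groups, and for Ctsb in A+T+ mice. On TWD it lay below 0 for these 5 genes, except for Ctsl in A+T+ mice.

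Within groups the 10 genes still varied together, in a main and a looser set. Over all 45 mice the 45 pairs of genes had a Pearson r of 0.456 to 0.982 with a median of 0.829, which contains the difference between A+ and Aw mice. After group and batch means were removed the median was 0.514 and the range 0.104 to 0.945 (Spearman's rho, median 0.498). Ctsd and Ctsz were closest at 0.945, followed by Ctsa with Ctsz at 0.913 and Ctsa with Ctsd at 0.893. Cst3 varied with Ctsz at 0.885 and with Ctsa at 0.870. Cst7 was the loosest member, with a median of 0.299 over its 9 pairs, then Ctsh with 0.347 and Ctss with 0.412. These values are descriptions, and the genes with the highest pairs are those with the highest r to the first residual component.

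**Figure D5:**
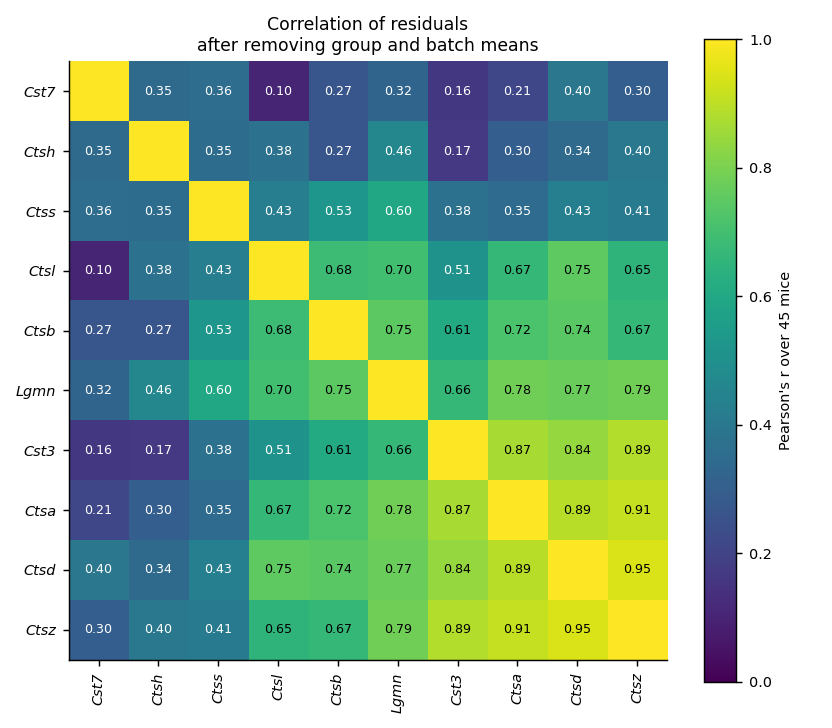
Pearson's r (colour and number) between the residuals of each pair of the 10 genes over 45 mice, after the group and batch means were removed. Cst3, Ctsa, Ctsd and Ctsz form the block of high values at the lower right, and Cst7, Ctsh and Ctss have low values with most other genes.

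The relation to microglial markers within groups was tested over the same residuals. Of the 10 genes, 9 had a permutation p adjusted over 30 relations under 0.05 with the microglial marker mean (100000 permutations within group and batch, two-sided), the exception being Ctsl (Pearson's r = 0.359, adjusted p = 0.0623). The relation was tested for these 10 genes alone. No share of all genes stands beside the 9, so the relation is not shown to be particular to them. Values were shuffled within each cell of group and batch, while the residuals came from a fit of group plus batch. Any part of r between such cells was thus the same in every permutation, and p does not rank with r. Ctsh had the smallest permutation p, 4e-05, with r = 0.412. Ctss had the highest r, 0.775 (permutation p = 0.000230, adjusted p = 0.00345), with Spearman's rho = 0.636 (permutation p = 0.000970). Without the 2 mice farthest from the median r was 0.706, and it was 0.825 in batch 0 and 0.705 in batch 1. Lgmn followed with r = 0.700 (permutation p = 0.000440, rho = 0.639 with permutation p = 0.000290, 0.618 without the 2 farthest mice, 0.702 and 0.711 within the batches). For Cst7 r was 0.533 (permutation p = 0.00552, rho = 0.539 with permutation p = 0.00638, 0.434 without the 2 farthest mice, 0.707 and 0.416 within the batches). With the astrocyte and the choroid plexus marker means 0 of the 20 relations had an adjusted permutation p under 0.05 by Pearson's r. The smallest was 0.0549 for Ctsl and choroid plexus (r = 0.507). By Spearman's rho this relation did pass, with rho = 0.526 (adjusted permutation p = 0.0376).

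The genes whose values were most like those of each of the 10 over all mice were sought by Pearson's r, which here includes the difference between A+ and Aw mice. For Cst7 they were Itgax (r = 0.971), Ccl3 (0.967) and Prnp (0.965), the last being the gene whose promoter drives the APP/PS1 transgene. For Ctss they were Ly86, Fcgr3 and Tyrobp (0.958 to 0.955), for Ctsd Hexa, Tyrobp and Man2b1 (0.960 to 0.953), and for Ctsz Hexa, C1qa and C1qc (0.977 to 0.968). Hexa encodes a subunit of the lysosomal β-hexosaminidase, Man2b1 the lysosomal α-mannosidase, and the C1q genes the starting component of classical complement. Lgmn was most like C1qb, C1qc and C1qa (0.917 to 0.915), Ctsb like Abhd4, Csf1r and Lamp1 (0.891 to 0.864), Ctsh like Lyz2, Ccl3 and Cd52 (0.909 to 0.863), Ctsl like Man2b1, Itgb2 and Capg (0.889 to 0.880) and Ctsa like Cyba, Naglu and Unc93b1 (0.949 to 0.933). Cst3 was most like Rps9, Ftl1 and Tsc22d4 (0.962 to 0.955), of which Rps9 encodes a ribosomal protein and Ftl1 the ferritin light chain.

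On the residuals the most similar genes changed for most of the 10. Cst7 then had no close companion, its highest r being 0.565 with Olfml3, and Ctsh reached 0.659 with Lyz2. Ctss was most like Psmd7 (0.721) and Ctsl like Ezr (0.770). Ctsd and Ctsz shared Tmem176b (0.909 and 0.933) and Hexa (0.899 and 0.929) among their 3 most similar genes. Lgmn was most like Lamp1 (0.911), Ctsa like Apoe (0.948) and Cst3 like Rps15 (0.967). These correlations are descriptions over 45 mice that share batches and variation along the first residual component.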

How the data were processed

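RNA from the hippocampus of 45 mice was sequenced as single reads. Per the labels, the authors used Trimmomatic 0.38 for trimming, Bowtie2 2.2.3 for filtering, and kallisto 0.44.0 for quantification per transcript, summed per gene. The deposited values are log2-like, made by the authors from genes above a low mean count with DESeq2 1.22.2 (variance stabilisation) and limma 3.38.3 (removal of batch). The means, ranges, overlaps and flagged values per group use them without a further batch term. Counts were not used here, no depth could be read from the values, and precision comes from the spread between mice.

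One limma 3.58.1 fit (R 4.3.3, empirical Bayes with mean trend) of the 8 groups and batch over all 15897 genes gave the genotype contrasts, interactions and diet contrasts within genotype. The diet contrast over all genotypes came from a fit without interactions. Tests were two-sided with Benjamini-Hochberg adjustment and a threshold of 0.05. Groups came from the labels, which name separate mice. The genes and gene lists were chosen with earlier results of these data known. Named genes are the 10 genes, listed genes past the threshold or defining a cell type or role, and the 3 genes most correlated with each of the 10, without exact copies. Alternatives were a fit with no batch term, each batch by itself, only the groups compared, quantile normalization, genes above the 25th percentile of mean value, no mean trend, a choroid plexus covariate and each mouse left out. The first residual component as a covariate, leaving out exact copies and values relative to microglial markers were added after the data were seen. The component score was computed from the full values, with group and diet differences in them. Gene coordinates come from GENCODE M21 (GRCm38). The fit was tested on simulated data.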

Additional observations from a re-analysis of the deposited data

Results flagged for a closer look

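The highest Cst7 value of the A+Tw/TWD group, 10.07 in replicate 5, stood apart from the other 5 mice of the group, which lay between 8.96 and 9.37. Replicate 5 belongs to batch 1, as do 2 of the 6 mice of this group. Without this mouse the difference between A+Tw/TWD and AwTw/TWD was 4.06 in place of 4.15. The lowest Ctsb value of the same group, 12.89 in replicate 3, stood apart from the others, between 13.57 and 13.81. Without it the Ctsb difference between A+Tw/TWD and AwTw/TWD was 0.28 (adjusted p = 0.750, limma) in place of 0.15, and that between all A+ and all Aw mice 0.34 in place of 0.31. With Dixon's test at the 95% level over 80 groups of values (10 genes in 8 groups), chance alone marks about 1 in 20, so 2 marked values are fewer than chance would give.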

How the results depend on the processing

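The counts of the 10 genes called stayed within 1.5 times the reported ones without a batch covariate, among genes above the 25th percentile and with exact copies left out, in every comparison. In batch 0 alone the counts were 3 for A+T+/TWD (0.208% of all genes), 3 for A+T+/STD (0.258%) and 0 for diet in AwTw (0%). Comparisons that use the 1 A+Tw/STD mouse of batch 0 are not listed here. In batch 1 alone the counts were 2 for A+T+/TWD (0.164% of all genes), 4 for A+T+/STD (0.214%), 2 for A+Tw/TWD (0.151%) and 5 for A+Tw/STD (0.535%). For diet they were 5 in AwTw (25% of all genes) and 6 over all genotypes (40.9%). Fits of only the groups compared gave 4 (A+Tw/STD), 3 (A+T+/TWD) and 0 (diet in AwTw), against 0.415%, 0.315% and 0.00629% of all genes. No such fit was run where all groups enter. Diet in AwTw gave 0 with quantile normalization, 0 without mean trend and 4 with the choroid plexus covariate, against 0%, 0% and 17.2% of all genes. The first residual component as covariate gave 8 (A+Tw/TWD), 0 (diet in AwTw) and 0 (diet over all genotypes), against 1.28%, 0% and 0% of all genes. No share of all genes was taken in the fits that left out 1 mouse. Leaving out 1 mouse at a time gave 4 to 5 in A+T+/TWD, 6 to 9 in A+T+/STD, 5 to 6 in A+Tw/TWD, 6 to 9 in A+Tw/STD, 9 to 10 over all A+ mice, 0 to 7 for diet in AwTw, highest without AwTw/TWD replicate 5, and 1 to 5 for diet over all genotypes, lowest without AwT+/TWD replicate 3 or AwTw/TWD replicate 3 and highest without A+T+/STD replicate 2 or A+Tw/STD replicate 2. Of all 150 differences of the 10 genes over 15 comparisons, called or not, 39 changed direction in batch 0 alone, 6 of them in the interaction of A+ with diet, and 17 in batch 1 alone. Among genes and comparisons called under any setting the direction turned in batch 0 alone for Lgmn in A+Tw/STD (-0.022), for Cst3 (-0.059) and Ctsd (-0.095) under diet in AwTw, and for Ctsb (-0.033), Ctsd (-0.096) and Ctsl (-0.089) under diet over all genotypes. With the first residual component these 3 were -0.033, -0.042 and -0.031. Batch 0 holds 1 A+Tw/STD mouse, which is assumed to vary like the other groups, and fewer mice enter each batch; the other causes were not tested. Over the 45 mice left out in turn, 0 of the differences called in any fit turned direction.

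No paired analysis was possible because the replicate numbers only name mice in accession order. These values hold no depth, so limits set by depth could not be given, and p-values rest on the spread between mice. Differences of low values are understated on this scale.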
